A study of Mus musculus with 8 samples.

Results

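The genes examined are the 8 mouse members of the GATA, HNF4 and FOXA families that act in endoderm, namely Gata4, Gata5, Gata6, Hnf4a, Hnf4g, Foxa1, Foxa2 and Foxa3. They were chosen by name, and all 8 were present among the 53170 named genes of the count table and among the 14058 genes that were counted often enough to be tested. The libraries are bulk RNA sequencing of organoids grown from mouse glandular stomach (hindstomach) epithelium taken at embryonic day 18.5 and kept for 5 days in growth medium. The 4 control libraries have the genotype Shh-Cre, a recombinase expressed from the Shh locus in foregut epithelium, and the 4 YAP5SA libraries have the genotype Shh-Cre;YAP5SA, so every library carries Shh-Cre. YAP5SA is a form of YAP, a transcriptional coactivator, in which serines that the Hippo kinases phosphorylate are replaced, so that it stays active. Nothing in the labels ties a library to its own embryo or culture. The p-values therefore measure the spread between these 8 libraries alone, and that spread may be technical.

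GATA factors are zinc finger proteins that bind the DNA letters for which they are named, and Gata4, Gata5 and Gata6 are the members of gut, heart and other endodermal and mesodermal tissue. HNF4 proteins are nuclear receptors that drive genes of lipid transport, brush border and metabolism in liver, kidney, intestine and stomach. FOXA proteins are forkhead factors that bind DNA in closed chromatin and act before other regulators in the development of endodermal organs.

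Total counts per library ran from 13672268 to 19710648. Epithelial markers were abundant in both groups. The summed level of Epcam, Cdh1, Krt8, Krt18, Krt19 and Cldn7 ran from 7594 to 8134 CPM (counts scaled by TMM to libraries of one size) in controls and from 6307 to 6556 CPM in YAP5SA. The summed level of 9 genes of glandular stomach ran from 2694 to 2769 CPM in controls and from 7.95 to 15.02 CPM in YAP5SA. All 9 were called lower, beside 25.5% of all tested genes. The labelled tissue is therefore visible in these markers in the controls and nearly absent from their sum in the YAP5SA libraries. Tff2 fell the least of the 9, from 7.16 ± 0.70 to 3.52 ± 0.57 CPM (SD, n = 4). The intestinal regulators Cdx1 and Cdx2 had 0 counts in every library. Yap1 ran from 151.7 to 169.2 CPM in controls and from 149.6 to 157.4 CPM in YAP5SA, so it was not higher in the libraries labelled YAP5SA, and the count table does not check the genotype labels through this gene. Xist, the RNA of the inactive X chromosome, ran from 675.6 to 1049 CPM in controls and from 0.41 to 2.76 CPM in YAP5SA, and the Y-linked gene Ddx3y from 0.00 to 0.32 CPM in controls and from 68.2 to 75.6 CPM in YAP5SA. All 8 members are autosomal, but sex and genotype cannot be told apart in any value given here. In bulk libraries, fewer cells of a type and less RNA per cell cannot be told apart either.

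Of the 8 factor genes, 7 fell in YAP5SA organoids and 1, Foxa1, rose slightly. Gata5, Foxa3, Hnf4a and Foxa2 were the deepest losses, with 0.23%, 1.97%, 3.02% and 4.57% of the mean control CPM left. Hnf4g and Gata4 retained 15.3% and 22.7%, and Gata6 retained 60.9%. Foxa1, the most abundant of the 8 in both groups, stood at 114.4% of its mean control CPM. A gene was called when its p from edgeR's quasi-likelihood test, adjusted by Benjamini-Hochberg over all tested genes, was below 0.05. Among all tested genes 49.1% were called, 25.5% lower and 23.6% higher, so the 7 of 8 called lower stand beside 25.5% of all genes. A decrease of at least 4-fold was called in 6 of the 8 and in 4.38% of all tested genes, and a decrease of at least 16-fold in 4 of the 8 and in 1.89%. In 7 members every YAP5SA library was below every control library, as in 23.9% of tested genes, and in Foxa1 every YAP5SA library was above every control library, as in 21.8%. The members were chosen with earlier results of these data known, so these counts describe the 8 genes and are not a test of the families. Gata5 and Hnf4g had fewer than 10 reads in every YAP5SA library. They passed the filter on low counts only through the controls, so they had to be lower in YAP5SA. Foxa3, with 7 reads in YAP5SA 1, also needed the controls to pass.

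**Figure D1:**
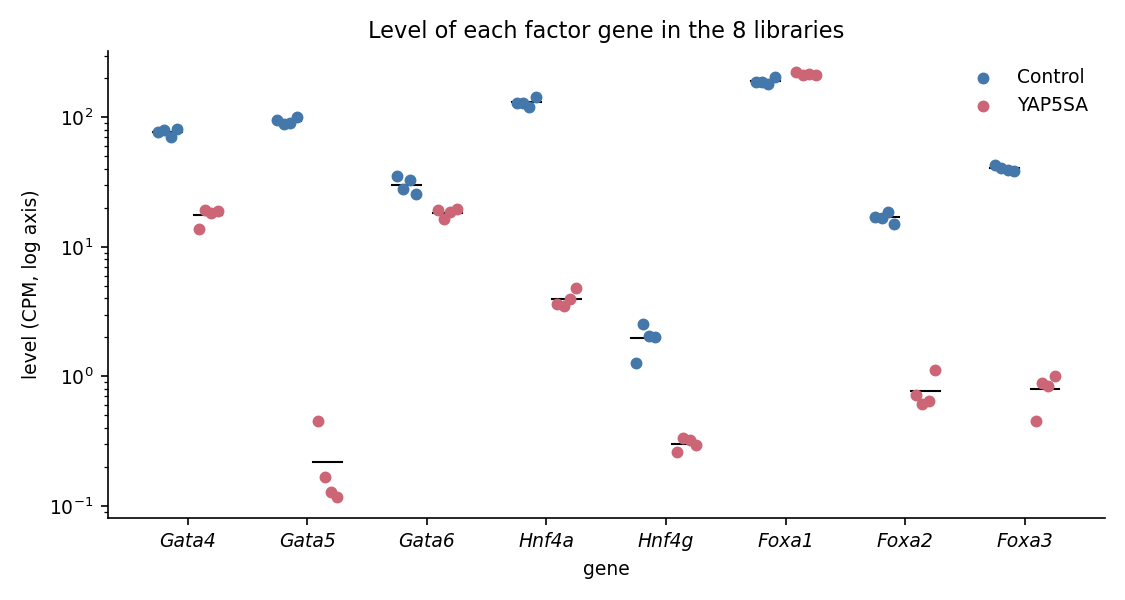
Level in CPM (log axis) of each of the 8 factor genes in each of the 8 libraries, with 4 control and 4 YAP5SA points per gene and a black line at the group mean. The groups are apart for every gene, by a wide margin for Gata5, Hnf4a, Foxa2 and Foxa3 and narrowly for Foxa1, whose control libraries reach 204.0 CPM and whose YAP5SA libraries start at 212.2 CPM.

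The GATA family lost most of its RNA, and its members parted. Gata5, a regulator of endoderm and heart development, had 94.8, 89.4, 91.1 and 99.8 CPM in control 1 to 4 and 0.45, 0.17, 0.13 and 0.12 CPM in YAP5SA 1 to 4. It was high in every control and at the edge of detection in every YAP5SA library, where 14 reads in all were counted against 6272 in the controls. In the fit over all genes its log2 fold change was −8.74 ± 0.15 (SE, adjusted p = 1.18e-17, edgeR), and 19 of the 14058 tested genes had a lower one. Without YAP5SA 1, which held 7 of the 14 reads, it was −9.33 (adjusted p = 8.45e-17, edgeR).

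Gata4, required for the glandular stomach epithelium, had 77.0, 80.0, 70.3 and 81.9 CPM in controls and 13.7, 19.3, 18.3 and 18.8 CPM in YAP5SA. The groups were well separated, and YAP5SA 1 was the lowest library. Gata4 fell 4.39-fold (log2 fold change −2.13 ± 0.09, SE, adjusted p = 1.47e-12, edgeR). Gata6, a factor of early endoderm, had 34.9, 27.7, 32.7 and 25.6 CPM in controls and 19.3, 16.3, 18.5 and 19.6 CPM in YAP5SA. Its controls were spread more widely than those of Gata4 or Gata5 (coefficient of variation 14.3%, against 6.57% and 4.93%), and the lowest control was still above the highest YAP5SA library. Gata6 fell 1.65-fold (log2 fold change −0.72 ± 0.10, SE, adjusted p = 1.19e-05, edgeR).

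Levels of different genes are compared here per kb of exon (union of the annotated exons of a gene). Summed over the 3 genes, the GATA level fell from 53.1 ± 2.0 CPM per kb (SD, n = 4) in controls to 7.39 ± 0.54 in YAP5SA. In controls Gata5 made up 53.9% ± 1.2 of this sum, Gata4 37.3% ± 1.7 and Gata6 8.78% ± 1.38 (SD, n = 4). In YAP5SA the shares were 0.93% ± 0.78 for Gata5, 60.6% ± 5.4 for Gata4 and 38.4% ± 4.7 for Gata6. The remaining GATA RNA was thus almost all from Gata4 and Gata6. Their 2 shares depend on the length used. Per kb of the longest transcript, Gata4 and Gata6 stood close in YAP5SA, at 5.16 ± 0.76 and 4.86 ± 0.39 CPM per kb (SD, n = 4). The log2 ratio of Gata6 to Gata4 within a library, which does not depend on scaling between libraries, ran from −2.42 to −1.84 in controls and from −0.98 to −0.25 in YAP5SA, without overlap. This shift was not tested.

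Below is the promoter of Gata5, shown because its gene lost most of its RNA. It and the promoters that follow are stretches of 200 bases, from 250 to 51 bases before an annotated transcript start, from RefSeq (GRCm38.p6). The 8 such windows of 5 of the 8 members (Gata5, Hnf4a, Foxa1, Foxa2 and Foxa3) were searched. Gata4 and Hnf4g had no window there. Gata6 was left out of the search by its chromosome, so any window of it is not covered here. Capitals mark exact matches, on either strand, to 4 short motifs. The motif of TEAD proteins, the DNA-binding partners of YAP, was searched as GGAATG and is held by 10.7% of all 32851 such windows. That of GATA factors was searched as GATAA and is held by 19.3% of them. That of FOXA factors was searched as TGTTTAC and is held by 2.58% of windows. The HNF4 letters AAGTCC are held by 9.92%. No listed motif lies within another. A match describes letters only, and an absent match says only that these letters are not in the window. The Gata5 window, at chr2:180334730-180334929 on the minus strand, held none of them.
Gata5: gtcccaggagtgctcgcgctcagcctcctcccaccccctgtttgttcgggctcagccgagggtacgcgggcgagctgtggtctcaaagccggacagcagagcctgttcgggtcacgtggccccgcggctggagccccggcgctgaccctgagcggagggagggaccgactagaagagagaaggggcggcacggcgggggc

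The TEAD and HNF4 letters were in none of the 8 windows, and 2 of the 8 held any of the 4 motifs.

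HNF4 RNA was nearly lost, and almost all of it was Hnf4a in both groups. Hnf4a, the nuclear receptor that drives genes of hepatocytes in the liver and of enterocytes in the gut, had 130.0, 129.3, 120.4 and 143.1 CPM in controls and 3.62, 3.48, 3.93 and 4.77 CPM in YAP5SA. The coefficient of variation was 7.16% in controls and 14.6% in YAP5SA, and a wide gap lay between the lowest control and the highest YAP5SA library. Hnf4a fell 33.0-fold (log2 fold change −5.04 ± 0.09, SE, adjusted p = 2.01e-17, edgeR). Hnf4g, its paralog best known from intestine, was low throughout, with 1.26, 2.55, 2.04 and 2.03 CPM in controls and 0.26, 0.33, 0.32 and 0.29 CPM in YAP5SA. The groups did not overlap, but the YAP5SA values rest on 20 reads in all and the control values on 134. Its log2 fold change was −2.68 ± 0.35 (SE, adjusted p = 4.80e-06, edgeR), with the largest standard error of the 8 genes.

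The HNF4 sum fell from 27.8 ± 1.9 to 0.93 ± 0.12 CPM per kb (SD, n = 4). Hnf4a held 97.3% ± 0.7 of it in controls and 87.6% ± 2.0 in YAP5SA (SD, n = 4). The log2 ratio of Hnf4g to Hnf4a ran from −5.81 to −4.79 in controls and from −3.14 to −2.52 in YAP5SA. The share of Hnf4g in the family was higher in YAP5SA while its own level was lower.

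Hnf4a has a distal and a proximal promoter, which start different isoforms. Both are shown because a count per gene does not say which of them was in use. The distal window, at chr2:163506607-163506806 on the plus strand, held none of the motif letters. The proximal window, at chr2:163546905-163547104 on the plus strand, lies inside the gene (38 of its bases are in an annotated exon in GENCODE M21) and held none either.
Hnf4a distal: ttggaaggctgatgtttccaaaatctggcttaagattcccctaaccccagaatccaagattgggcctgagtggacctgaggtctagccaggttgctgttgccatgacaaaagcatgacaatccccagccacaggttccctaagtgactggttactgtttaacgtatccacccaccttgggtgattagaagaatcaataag
Hnf4a proximal: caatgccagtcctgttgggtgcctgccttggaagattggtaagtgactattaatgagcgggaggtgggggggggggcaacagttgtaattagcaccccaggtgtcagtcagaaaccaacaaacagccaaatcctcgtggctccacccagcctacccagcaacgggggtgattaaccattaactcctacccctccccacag

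The FOXA family held its largest member and lost the other 2. Foxa1, a forkhead factor of foregut, lung and other epithelia, had 186.6, 187.9, 179.5 and 204.0 CPM in controls and 223.8, 213.1, 217.6 and 212.2 CPM in YAP5SA. All YAP5SA libraries were above all controls, by a small margin. Foxa1 rose 1.14-fold (log2 fold change 0.19 ± 0.05, SE, adjusted p = 0.00394, edgeR). Foxa2, which is needed for foregut endoderm to form, had 17.1, 16.8, 18.5 and 15.1 CPM in controls and 0.71, 0.61, 0.64 and 1.12 CPM in YAP5SA. It was low next to Foxa1 already in the controls and was counted 51 times in all in YAP5SA. Foxa2 fell 21.7-fold (log2 fold change −4.44 ± 0.17, SE, adjusted p = 3.98e-13, edgeR).

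Foxa3, the FOXA gene of later endoderm, liver and gut, had 43.2, 40.4, 38.9 and 38.6 CPM in controls and 0.45, 0.88, 0.84 and 1.001 CPM in YAP5SA. The controls were close together and no YAP5SA library came near them. Foxa3 fell 49.8-fold (log2 fold change −5.64 ± 0.14, SE, adjusted p = 8.98e-16, edgeR). The FOXA sum went from 83.8 ± 2.4 to 65.8 ± 1.4 CPM per kb (SD, n = 4), a smaller step than in the GATA or HNF4 sums. Foxa1 held 67.9% ± 2.0 of it in controls and 98.9% ± 0.3 in YAP5SA, Foxa3 23.6% ± 1.3 and 0.59% ± 0.19, and Foxa2 8.51% ± 0.95 and 0.49% ± 0.16 (SD, n = 4). The log2 ratio of Foxa3 to Foxa1 ran from −1.70 to −1.40 in controls and from −8.24 to −7.02 in YAP5SA.

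The promoter windows of Foxa1 and Foxa2 are set side by side because these neighbours in the family went opposite ways. The Foxa1 window, at chr12:57546162-57546361 on the minus strand, held the FOXA letters at 141 bases before the start. Of the 3 windows of Foxa2, the one farthest downstream, at chr2:148045515-148045714 on the minus strand, held the GATA letters at 182 bases before its start. This window lies past the transcript starts of the other 2 windows. Those 2 held none of the letters, nor did the window of Foxa3.
Foxa1: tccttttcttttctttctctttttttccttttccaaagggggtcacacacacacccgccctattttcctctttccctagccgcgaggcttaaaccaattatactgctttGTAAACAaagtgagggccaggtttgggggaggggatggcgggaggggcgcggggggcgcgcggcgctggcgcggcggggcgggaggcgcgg
Foxa2: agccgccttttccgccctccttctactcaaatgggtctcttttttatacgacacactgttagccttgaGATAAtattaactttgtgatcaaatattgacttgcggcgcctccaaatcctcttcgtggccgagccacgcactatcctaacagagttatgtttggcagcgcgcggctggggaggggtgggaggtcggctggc

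**Figure D2:**
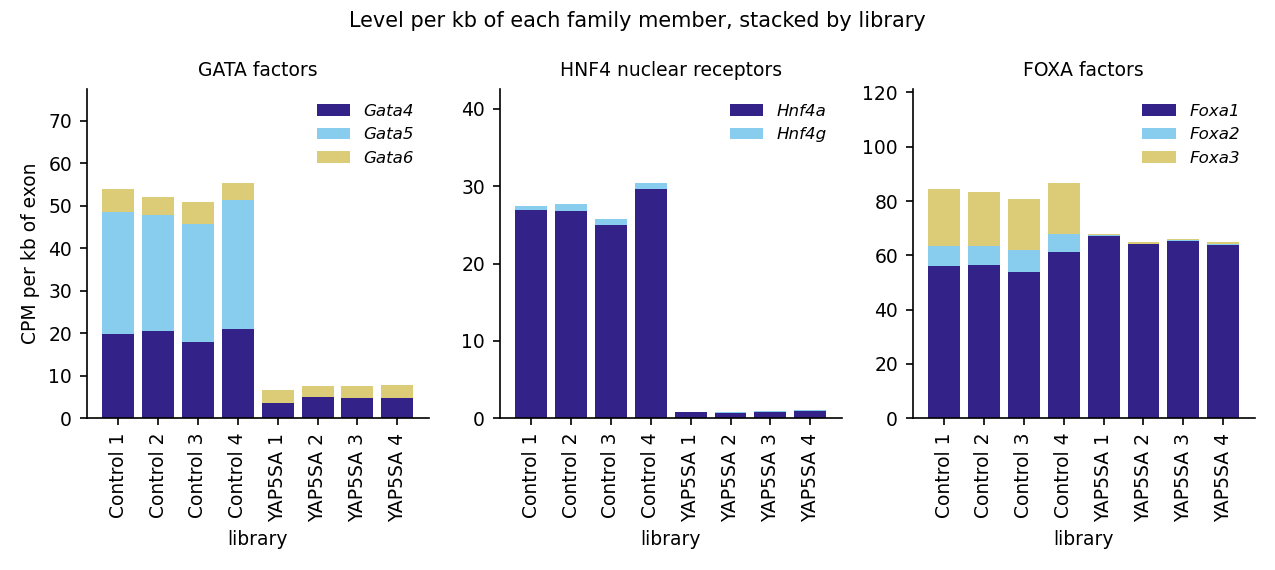
Level per kb of exon of the members of each family, stacked, in each of the 8 libraries (3 panels, each with its own axis from 0). The GATA and HNF4 bars collapse in all 4 YAP5SA libraries, while the FOXA bars stay above 64 CPM per kb and consist almost wholly of Foxa1.

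Ordered by level per kb, the controls ran Foxa1 (57.0 ± 3.1), Gata5 (28.6 ± 1.4), Hnf4a (27.1 ± 1.9), Gata4 (19.8 ± 1.3), Foxa3 (19.8 ± 1.0), Foxa2 (7.12 ± 0.60), Gata6 (4.65 ± 0.66) and Hnf4g (0.75 ± 0.20 CPM per kb, SD, n = 4). Gata5 and Hnf4a overlapped in range, as did Gata4 and Foxa3. In YAP5SA the order was Foxa1 (65.1 ± 1.6), Gata4 (4.50 ± 0.66), Gata6 (2.83 ± 0.23), Hnf4a (0.82 ± 0.12), Foxa3 (0.39 ± 0.12), Foxa2 (0.33 ± 0.10), Hnf4g (0.11 ± 0.01) and Gata5 (0.07 ± 0.05 CPM per kb, SD, n = 4). Foxa3 and Foxa2 overlapped, as did Hnf4g and Gata5. Gata5 thus went from the second place to the last. The gene models set part of this order: per kb of the longest transcript or of the longest coding sequence, Gata4 and Gata6 overlapped in YAP5SA, and Hnf4a came before Gata5 and Gata6 before Foxa2 in the controls, with overlapping ranges per kb of transcript and without overlap per kb of coding sequence.

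**Figure D3:**
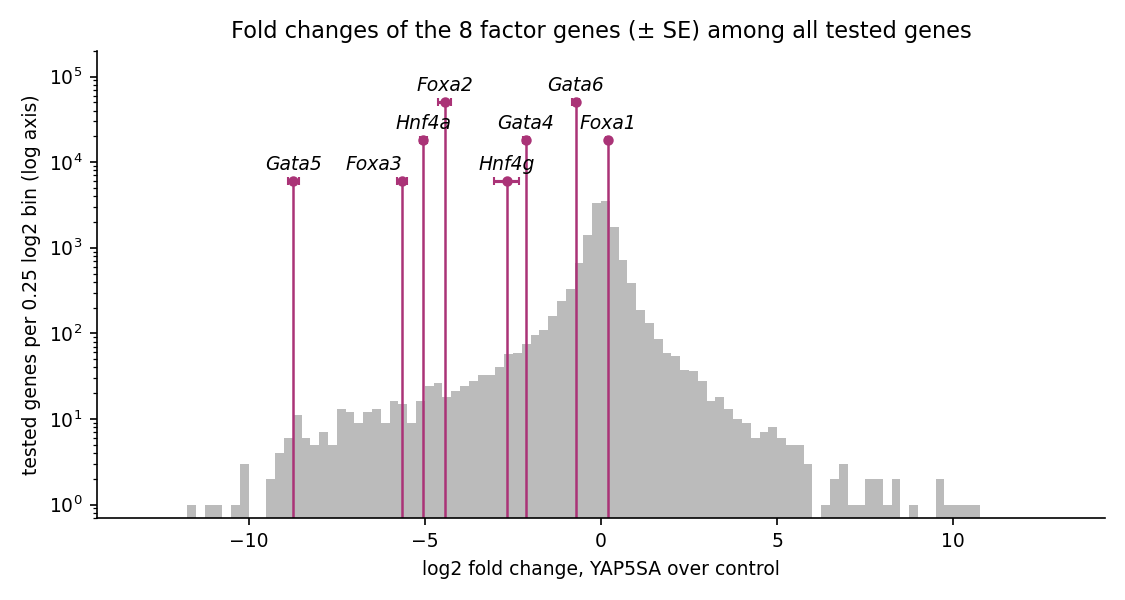
Histogram of the log2 fold change (YAP5SA over control) of all 14058 tested genes in bins of 0.25, with a log axis for the number of genes, and the 8 factor genes marked by lines with a point and ± SE. Gata5, Foxa3, Hnf4a and Foxa2 lie in the lower tail at −8.74 to −4.44, and Foxa1 lies within the bulk at 0.19.

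In the whole distribution 142, 173 and 232 genes had a lower log2 fold change than Foxa3, Hnf4a and Foxa2, and 439, 574 and 1601 than Hnf4g, Gata4 and Gata6. Gata5, Hnf4a and Foxa2 are on chromosome 2, where 25.2% of 1057 tested genes were called lower and the median log2 fold change was 0.01, against 25.7% and 0.00 among the 13666 tested genes with a chromosome in the annotation. The other members are on chromosomes 14 (Gata4), 18 (Gata6), 3 (Hnf4g), 12 (Foxa1) and 7 (Foxa3).

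Noncoding genes beside the members were counted too. Gata5os, antisense to Gata5, had 39 reads over the controls and 0 over the YAP5SA libraries, and Hnf4aos, antisense to Hnf4a, had 11 and 2. The lincRNA 9030622O22Rik, which starts within 5000 bases of Foxa2, had 48 and 1. These 3 were too low to be tested. Gata6os, taken by its symbol as the antisense partner of Gata6, was called lower (1.58 ± 0.41 CPM in controls and 0.38 ± 0.10 CPM in YAP5SA, SD, n = 4, adjusted p = 9.65e-05, edgeR). Whether the counting used strand is not given in the sources used here, so reads of these genes and of the members they overlap cannot be told apart, but their counts were small beside those of the members. The protein-coding neighbour Sympk, which starts within 5000 bases of Foxa3, had 7352 reads over the controls and 8082 over the YAP5SA libraries.

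Gata2, Gata3 and Trps1 had at most 12 reads in a group, and Gata1 had 0, so no other GATA gene was counted often enough to be tested. Zfpm1, which encodes the GATA cofactor FOG1, fell from 109.6 ± 13.3 to 67.5 ± 2.9 CPM (SD, n = 4, adjusted p = 3.65e-07, edgeR), and Zfpm2 missed the threshold (log2 fold change −0.88, adjusted p = 0.0626, edgeR). Among the nuclear receptors known to share HNF4 sites or partners, Nr2f2, which encodes COUP-TFII, rose from 25.4 ± 2.8 to 78.3 ± 3.6 CPM (SD, n = 4, adjusted p = 5.53e-12, edgeR). Nr2f6 and Rxra missed the threshold, at log2 fold changes of −0.10 and 0.16.

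Among 20 regulators of foregut and other endoderm, 14 were tested. Of these 7 fell and 4 rose, and the other 3 missed the threshold, beside 25.5% lower and 23.6% higher among all tested genes. The 4 that rose are a share near that of all genes. The median log2 fold change of those tested was −0.28, and that of all tested genes was 0.0041. Isl1, a LIM homeodomain factor, fell from 18.9 ± 3.6 to 0.21 ± 0.15 CPM, Meis2 from 44.3 ± 5.3 to 13.1 ± 2.4 CPM and Prox1 from 3.31 ± 0.54 to 0.45 ± 0.19 CPM (SD, n = 4). Pdx1, the regulator of pancreas, duodenum and gastric antrum, had 62 reads over the controls and 0 over the YAP5SA libraries, at least 20.3-fold lower when the YAP5SA group is set to a floor of 3 counts. Sox2, which is high in the stomach and esophagus, rose from 30.6 ± 1.7 to 47.6 ± 4.3 CPM, Foxq1 from 56.9 ± 2.6 to 108.8 ± 5.5 CPM, Grhl2 from 71.1 ± 3.3 to 94.7 ± 4.4 CPM and Sox17 from 2.38 ± 0.82 to 5.06 ± 0.98 CPM (SD, n = 4).

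Genes known as targets of the factors were mostly silent in these organoids. Of 22 textbook targets of HNF4, chiefly from liver and intestine, 7 were tested and all 7 fell, beside 25.5% called lower among all tested genes. Their median log2 fold change was −6.35, and that of all tested genes was 0.0041. The other 15 averaged at most 0.57 CPM in either group, and 7 of them had 0 counts. Pklr and Cdhr2, among others, passed the filter on low counts only through the controls and so had to differ, and the list was made with earlier results of these data known, so the count is a description. Apoa1, which encodes apolipoprotein A-I, fell from 375.1 ± 51.9 to 4.62 ± 0.99 CPM, and Vil1, which encodes the microvillus protein villin, from 99.9 ± 8.6 to 12.2 ± 3.0 CPM (SD, n = 4). Pklr, the liver-type pyruvate kinase gene, fell from 5.49 ± 0.38 to 0.10 ± 0.09 CPM (SD, n = 4), and the protocadherin gene of the brush border Cdhr2 went from 1875 reads over the controls to 1 over the YAP5SA libraries. Apob fell from 259.1 ± 68.3 to 0.64 ± 0.26 CPM, while Mttp, the transfer protein that loads lipid onto apolipoprotein B, fell only from 17.1 ± 0.4 to 14.1 ± 0.9 CPM (SD, n = 4, adjusted p = 0.0188, edgeR). The call of Mttp was lost without YAP5SA 2 (adjusted p = 0.0624, edgeR) and without the filter on low counts (0.0713), which left 6 of the 7.

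Of 10 target genes of GATA factors in stomach and gut, 3 were tested, and 2 fell and 1 rose (median log2 fold change −0.60). Among all tested genes 25.5% were called lower and 23.6% higher. Hnf4a is 1 of the 3. Atp4a, the proton pump gene of parietal cells, fell from 8.21 ± 0.27 to 5.40 ± 1.33 CPM, and Muc2, an intestinal mucin gene, rose from 0.90 ± 0.36 to 2.58 ± 0.46 CPM (SD, n = 4, adjusted p = 0.00400 and 0.000365, edgeR). Of 13 target genes of FOXA factors, 5 were tested, and 3 fell and 2 rose (median log2 fold change −3.38), beside the same 25.5% and 23.6%. Pdx1 and Afp, 2 of those that fell, passed the filter on low counts only through the controls, so this count is a description. Agr2, an endoplasmic reticulum protein needed for mucin folding, fell from 40.1 ± 6.5 to 1.13 ± 0.25 CPM and Afp, the fetal serum protein of liver and yolk sac, from 5.06 ± 1.24 to 0.48 ± 0.11 CPM, beside Pdx1. Shh rose from 4.44 ± 0.22 to 7.23 ± 0.86 CPM (SD, n = 4, adjusted p = 0.000476, edgeR), as did Muc2.

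**Figure D4:**
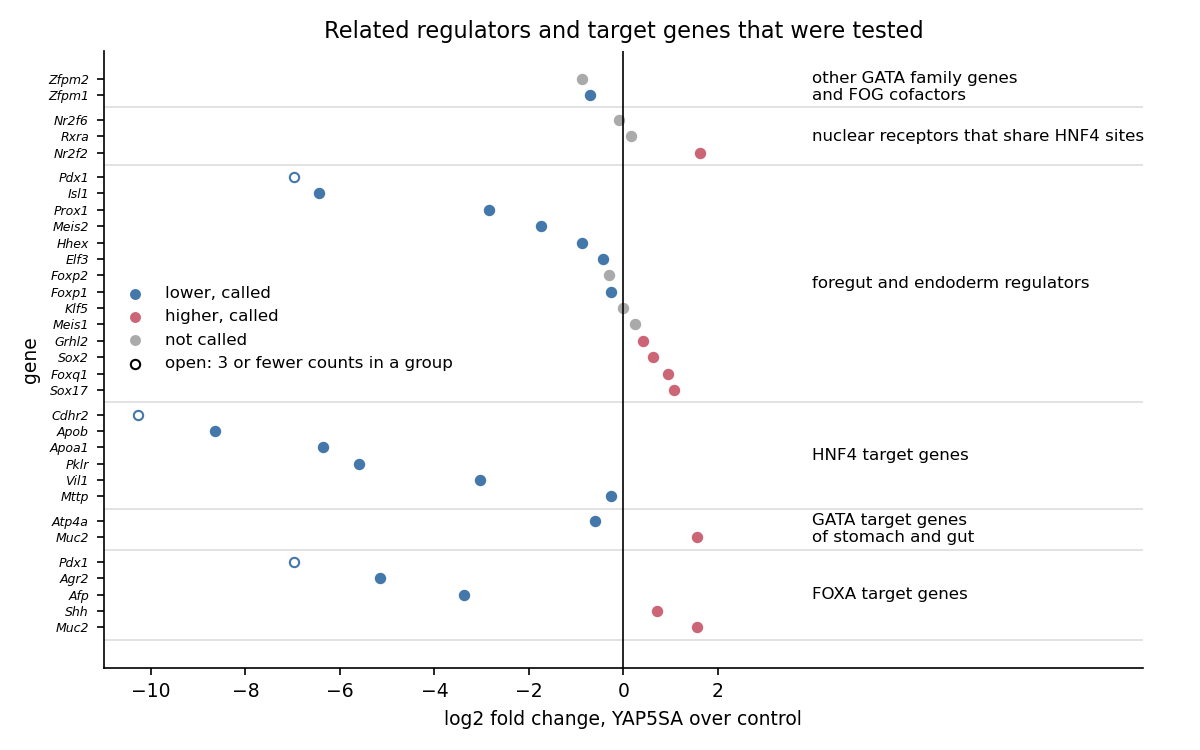
Log2 fold change (YAP5SA over control) of the tested genes of the 6 lists of related regulators and target genes that are reported here, leaving out the 8 factor genes, coloured by call, with open points where a group had 3 or fewer counts, so that the fitted value depends on the prior count. All 6 HNF4 targets plotted lie below 0, while the foregut regulators run from Pdx1 on the left to Sox17 on the right.

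Markers of heart muscle, mesenchyme, liver, pancreas and lung were low. Genes of heart muscle, which expresses Gata4, Gata5 and Gata6, summed to between 0.92 and 1.05 CPM in controls and between 0.06 and 0.65 CPM in YAP5SA, with Nkx2-5 and Actc1 at 0 counts and none of the 5 tested. Genes of mesenchyme summed to between 1.80 and 4.17 CPM in controls and between 0.61 and 1.71 CPM in YAP5SA, with Barx1 at 0 and none of the 8 tested. Liver markers summed to between 4.28 and 6.97 CPM in controls and between 0.39 and 0.66 CPM in YAP5SA, almost all of it Afp, with Serpina1a and Fgb at 0 counts and 1 of 5 called lower. Pancreas markers were at 1.13 CPM or less in all libraries, with Ptf1a, Cpa1 and Ins2 at 0, and 1 of 5 (Pdx1) called lower. Lung markers were at 0.39 CPM or less in all libraries, with Nkx2-1 at 0 counts.

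Other marker lists had genes that were called, as were 49.1% of all tested genes. Among 4 mesothelial genes Upk3b and Lrrn4 rose, to 18.6 ± 2.5 and 7.58 ± 2.70 CPM, and Msln fell, while Wt1 had 0 counts in controls and 3 in YAP5SA; the list summed to between 3114 and 3562 CPM in controls and between 1316 and 1655 CPM in YAP5SA, nearly all of it Msln. Among 4 immune genes Cd68 fell and Csf1r rose, and the sum ran from 19.6 to 39.1 CPM in controls and from 9.66 to 10.4 CPM in YAP5SA. Among 4 endothelial genes Tek fell and the others were too low to test, with sums of 6.50 to 13.7 CPM in controls and 0.06 to 0.84 CPM in YAP5SA. Csf1r (13 reads over the controls) passed the filter on low counts only through YAP5SA. Tek (21 reads over the YAP5SA libraries) passed it only through the controls. The directions of Csf1r and Tek were thus largely set by the filter. Intestinal markers summed to between 94.0 and 111.8 CPM in controls and between 9.72 and 17.1 CPM in YAP5SA, nearly all of it Vil1, with 2 of 6 called lower. Among 7 genes of squamous forestomach 1 rose (Sox2) and 1 fell (Ivl), with sums of 62.1 to 70.0 CPM in controls and 48.5 to 59.1 CPM in YAP5SA. Enteric neural genes were at 0.84 CPM or less, with Sox10 at 0 counts. The part of these markers in the results was not tested.

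The genes whose pattern over the 8 libraries was most like that of a member were found by the root mean square distance in log2 CPM, each relative to its control mean, among 9846 other genes whose average log2 CPM was 3 or more. Up to 2 are named for each member. For Hnf4a they were Gm20186 (distance 0.12) and Procr (0.21), for Gata5 Apob (0.38) and Gkn3 (0.51), and for Foxa3 Gm43305 (0.28). For Foxa2 they were Nefl (0.12) and Itga2 (0.17), for Gata4 Arhgap6 and Cldn2 (both 0.15), and for Hnf4g Myh10 (0.23) and Eif3j2 (0.24), whose reads may be shared with its near-identical copy Eif3j1. For Gata6 they were Pnkd (0.06) and Cd320 (0.09), and for Foxa1 Prdm2 (0.03). The distance is set mainly by the difference between the groups, so it lists genes with a like fold change.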

How the data were processed

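The deposited values are raw read counts for each gene. The submitters' processing notes name cutadapt, HISAT2 2.0.1, HTSeq 0.6.1 and the build mm9; annotation, strand and filters are not stated in what was used here. Per the labels' protocols, total RNA was sequenced as paired-end reads. Of 56691 rows, 2639 had no gene name (0.190% to 0.221% of a library's counts) and were left out; 959 rows sharing 77 symbols were summed. Genes were kept by filterByExpr (minimum count 10, minimum total 15) and scaled by TMM. The test was glmQLFTest of edgeR 4.0.16 (R 4.3.3, robust fit, genotype as the only term; common biological coefficient of variation 7.97%), with Benjamini-Hochberg adjustment. SE is the log2 fold change over the root of F. DESeq2 1.42.0 was an alternative. Exon lengths, chromosomes and neighbours came from GENCODE M21 (GRCm38) by symbol. On simulated counts for YAP5SA against control (13871 genes tested), 74% of 1.5-fold, 83.7% of 2-fold and 100% of 4-fold changes were recovered, and 5.95% of calls were of unchanged genes. At most 50 tested genes were changed at each fold, far fewer in all than were called in the data. These rates may therefore differ from those in the data. The floor given covers counting error alone.

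The 8 genes and all lists were chosen with earlier results of these data known. Genes named are the 8, up to 5 of each related or target list with the smallest adjusted p and those against its majority, the most abundant and the 0-count genes of each cell type list, neighbours within 5000 bases and the 2 nearest patterns of each member; further genes (such as Zfpm2, Nr2f6, Rxra, Trps1, Mttp, Upk3b, Csf1r and Tek) were named after their values were seen. No list was tested as a set. Some genes that the rule takes, which are in the list counts, are not reported.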

Additional observations from a re-analysis of the deposited data

Results flagged for a closer look

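Gata5 in YAP5SA 1 stood apart from the other 3 libraries of its group, at 0.453 CPM against 0.118 to 0.166 CPM. The gap was larger than Dixon's 95% critical value for 4 samples allows. It rests on 7 reads against 3, 2 and 2. The levels of the 8 genes were examined in 16 groups of 4 libraries, and chance marks about 1 in 20 such groups.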

How the results depend on the processing

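The direction and call of all 8 factor genes held under RLE size factors, library size alone, DESeq2, no filter, a stricter filter, estimation without the robust option, a threshold of 0.01 and each of the 8 fits without 1 library. The range for Foxa1 was 0.16 to 0.23 (largest adjusted p = 0.0200, edgeR), for Gata6 −0.79 to −0.66 and for Gata5 −9.33 to −8.54. Without a filter on low counts 5 FOXA targets were called lower, 2 GATA targets higher and 1 HNF4 target higher (3, 1 and 0 with it). HNF4 targets called lower were 6 in place of 7 without that filter, without YAP5SA 2 and at a threshold of 0.01, in each case through Mttp. The foregut regulator Hhex and the mesothelial gene Lrrn4 also lost their calls at 0.01 (adjusted p = 0.0115 and 0.0109, edgeR). The stricter filter, at least 1 CPM in 4 libraries, left Pdx1 and Csf1r untested. FOXA targets called lower were then 2 in place of 3. Labels give the groups the same sample numbers. With the number as a replicate block, 6586 genes were called in place of 6899 and the 8 calls did not change. Same-numbered libraries did not deviate together (correlations −0.08 to 0.09, and 2 of 4 controls correlated best with their own number). Scaling by library size alone gave 3635 genes higher and 3282 lower, against 3315 and 3584. Depth limits Gata5 and Hnf4g in YAP5SA, with 14 and 20 reads.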
